A study of Arabidopsis thaliana with 18 samples.

Results

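The miR398 and miR408 entries of a small RNA table from *Arabidopsis thaliana* seedlings were examined across 3 genotypes and 2 temperatures. Members were every entry named miR398 or miR408, on either strand of the precursor, and they came to 6 of the 161 entries of the table: miR398a-5p, miR398a-3p, miR398b/c-5p, miR398b/c-3p, miR408-5p and miR408-3p. All 6 were among the 139 entries tested, those with a mean of at least 1 RPMR. RPMR is the number of reads of an entry divided by the 45S rRNA reads found in that library and multiplied by 1e6. miR397 and miR857, the laccase-directed miRNAs of the same nutrient response, had no entry under those names and so were not analysed here.

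Whole seedlings were taken at 4 d. The wild type was Col-0, and the mutants were *hyl1-2* (described as a null allele of HYL1, the double-stranded RNA-binding partner of the miRNA-processing enzyme DCL1) and *dcl1-24/hyl1-2* (the same mutant with an added dominant substitution in the RNaseIIIa domain of DCL1, found in a suppressor screen). All of them grew in continuous red light on half-strength Murashige and Skoog medium without added sugar, and spent a first period of 48 h at 21 °C and a second of equal length at 21 °C or at 27 °C. There were 3 libraries per group, 18 in all. No label says whether the 3 came from separate plantings, so p-values measure the spread between libraries. For levels, that spread was estimated mostly from all tested entries together, not from each entry alone. Entries of a library share its rRNA scaling and are not independent, so these p-values may be too small. In whole seedlings, fewer cells that make a miRNA and less of it per cell cannot be told apart.

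In plants, copper shortage is sensed through the transcription factor SPL7, which binds GTAC cores in promoters and switches on a set of miRNAs that remove mRNAs of dispensable copper proteins. miR398 is known for targeting the copper/zinc superoxide dismutases CSD1 and CSD2, their copper chaperone CCS and a cytochrome c oxidase subunit, and miR408 for targeting the copper proteins plantacyanin and several laccases. Sparing copper in this way leaves more of it for plastocyanin, the copper electron carrier of photosynthesis. In both families the 3p strand is the guide that is loaded into ARGONAUTE, and the 5p strand is its passenger.

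The mature strands are printed because the entries are defined by them, and because 2 of the members differ by a single base. Each is 21 nt, read 5′ to 3′ from the RefSeq annotation of the TAIR10.1 genome, with the seed (bases 2 to 8) in capitals.
miR398a-3p: uGUGUUCUcaggucaccccuu
miR398b-3p and miR398c-3p: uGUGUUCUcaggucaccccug
miR408-3p: aUGCACUGccucuucccuggc
miR398a-5p: aAGGAGUGgcaugugaacaca
miR398b-5p and miR398c-5p: aGGGUUGAuaugagaacacac
miR408-5p: aCAGGGAAcaagcagagcaug

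The 3 miR398 guides share the seed GUGUUCU. miR398b and miR398c have identical strands, so the table holds a single entry for each, and each sequence matches the genome at 2 places. The miR398a guide differs from theirs by U21G, counted from the 5′ end of miR398a-3p, so reads shortened at the 3′ end could come from either and the split between miR398a-3p and miR398b/c-3p is uncertain for such reads. miR408-3p has a seed of its own (UGCACUG).

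*MIR398a* (AT2G03445) lies at chr2:1040938-1041042 and *MIR398c* (AT5G14565) at chr5:4694694-4694808, both on the plus strand and inside no other annotated gene. *MIR398b* (AT5G14545, chr5:4691022-4691137, plus strand) starts 3672 bases before *MIR398c* and lies inside a 3′ UTR exon of the oppositely transcribed gene AT5G14550. *MIR408* (AT2G47015, chr2:19319814-19320031, plus strand) likewise lies inside a 3′ UTR exon of AT2G47020 on the other strand. The stretch of *MIR398c* from its 5p to its 3p strand (chr5:4694705-4694798) shows how the strands sit in the hairpin, with both in capitals and the 52 bases between them in lower case.
MIR398c: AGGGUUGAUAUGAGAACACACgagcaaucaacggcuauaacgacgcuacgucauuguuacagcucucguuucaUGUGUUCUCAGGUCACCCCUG

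GTAC, a palindrome that reads the same on both strands, was counted in the 1000 bases before each annotated precursor. *MIR408* held 11 matches, *MIR398c* 10, *MIR398b* 8 and *MIR398a* 2. Of all 326 annotated miRNA genes, 276 (84.7%) held at least 1 match and the median was 2, so the *MIR398a* count was at the median. *MIR408* alone reached 11 (0.307% of the genes), 3 genes reached 10 (0.92%) and 8 genes reached 8 (2.45%). The nearest upstream genes end 416 to 753 bases before these precursors, so the windows run into them.

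Stretches of 90 bases around the densest matches are given for the 3 precursors with the higher counts, on the plus strand of TAIR10.1, with GTAC in capitals. That of *MIR408* (chr2:19319426-19319515) held 5 matches, and those of *MIR398b* (chr5:4690738-4690827) and *MIR398c* (chr5:4694363-4694452) held 4 each.
MIR408: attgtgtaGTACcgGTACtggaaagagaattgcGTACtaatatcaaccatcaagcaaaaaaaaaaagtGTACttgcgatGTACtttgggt
MIR398b: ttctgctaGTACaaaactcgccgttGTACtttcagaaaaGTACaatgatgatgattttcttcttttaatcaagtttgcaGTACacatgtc
MIR398c: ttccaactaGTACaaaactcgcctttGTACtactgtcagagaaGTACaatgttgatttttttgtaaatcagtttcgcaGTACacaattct

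**Figure D1:**
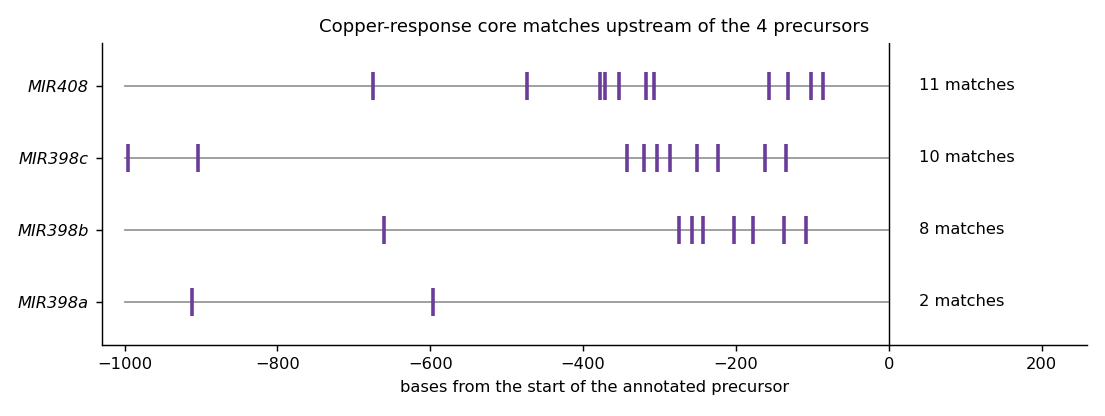
Positions of GTAC in the 1000 bases before the 4 annotated precursors, with the start of the precursor at 0 on the x axis. Each tick is 1 match, and the counts run from 2 for *MIR398a* to 11 for *MIR408*.

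Sites in known target mRNAs are shown because the guides act through them, with bases that pair with the guide in capitals. G:U pairs are left in lower case and are not counted as paired. The sites are the best ungapped match in the RefSeq transcript, and target mRNAs were not analysed here. The miR398b-3p match in CSD2 (AT2G28190) pairs at 13 bases, with 3 G:U pairs besides. That in CCS (AT1G12520) pairs at 15, with 1 G:U pair besides, and both are in the coding sequence. The miR408-3p match in the plantacyanin gene ARPN (AT2G02850) pairs at 19 bases and that in LAC3 (AT2G30210) at 17, also in coding sequence.
CSD2: tgcGGGTGACCTGgGAAacat
CCS: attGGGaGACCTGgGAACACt
ARPN: cCaAGGGAAGAGGCAGTGCAT
LAC3: aCCAGtGAAGAGGCtGTGCAg

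The 6 strands together made up 0.58 to 2.18% of the miRNA RPMR of a library. The miR398b/c guide was the highest, with a mean of 355 RPMR over the 18 libraries, the 13th highest of the 161 entries. miR408-3p followed at 59.3 RPMR (32nd). The passengers miR398b/c-5p and miR408-5p had means of 17.4 and 15.9 RPMR, the miR398a guide 5.41 RPMR and miR398a-5p 1.20 RPMR. miR398a-5p was listed at 0 in 5 libraries and amounted to 48 reads over all 18. A single read was worth 0.24 to 0.896 RPMR, as read from the steps between low values.

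In Col-0 at 21 °C the miR398b/c guide, which targets CSD1, CSD2 and CCS mRNAs, stood at 666, 467 and 306 RPMR. In *hyl1-2* at 21 °C it stood at 66.1, 77.9 and 15.7 RPMR, and in *dcl1-24/hyl1-2* at 333, 419 and 560 RPMR. The *hyl1-2* libraries lay below all others, and those of the suppressor within the range of Col-0. At 27 °C the levels were 429, 411 and 233 RPMR in Col-0, 76.9, 44.8 and 58.1 RPMR in *hyl1-2*, and 552, 481 and 1189 RPMR in *dcl1-24/hyl1-2*. At this temperature the 3 genotypes did not overlap, with the suppressor highest.

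miR408-3p, the guide against plantacyanin and laccases, was measured at 54.0, 33.4 and 24.1 RPMR in Col-0 at 21 °C. In *hyl1-2* at 21 °C it was at 9.58, 13.9 and 2.72 RPMR, and in *dcl1-24/hyl1-2* at 26.3, 17.9 and 35.8 RPMR. The *hyl1-2* libraries again lay below the others. At 27 °C it was at 225, 189 and 55.6 RPMR in Col-0, 76.5, 32.4 and 24.7 RPMR in *hyl1-2* and 47.5, 78.8 and 121 RPMR in *dcl1-24/hyl1-2*. In each genotype every library at 27 °C lay above every library at 21 °C, whereas the genotypes overlapped at 27 °C. How many of the 139 entries separated the temperatures in this way was not counted, here or for the other strands. In *hyl1-2* the median entry rose by 0.58 on the log2 scale, and miR827 and miR2111b-3p also separated without overlap there.

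**Figure D2:**
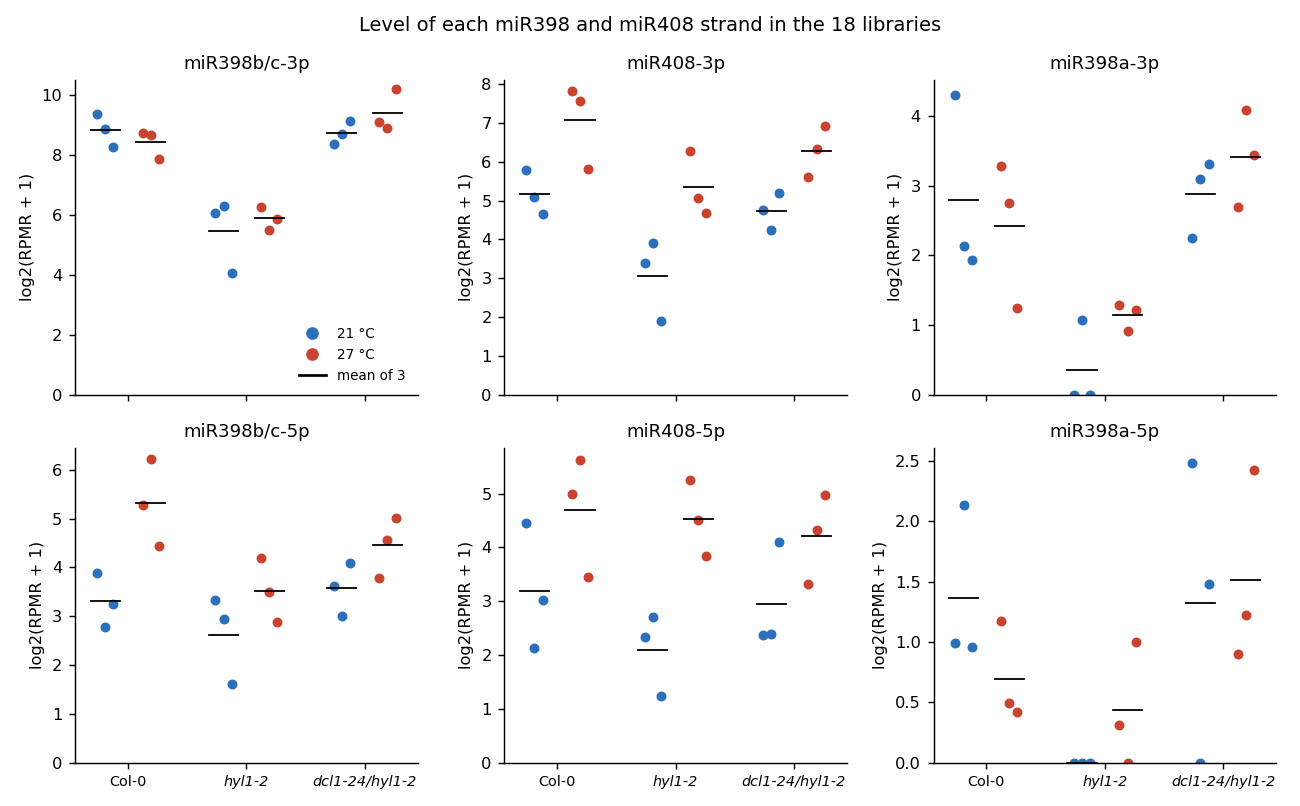
Level of the 6 strands, as log2(RPMR + 1) on the y axis, in the 3 libraries of each genotype at 21 °C (blue) and 27 °C (red); black bars are means of 3. miR408-3p is higher at 27 °C in all 3 genotypes, whereas miR398b/c-3p is low in *hyl1-2* at both temperatures.

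The miR398b/c passenger followed its guide less closely than the miR408 passenger did. miR398b/c-5p stood at 13.9, 5.91 and 8.51 RPMR in Col-0 at 21 °C and at 37.7, 73.5 and 20.8 RPMR at 27 °C, with no overlap. In *hyl1-2* it stood at 9.08, 6.68 and 2.04 RPMR at 21 °C and at 17.3, 10.2 and 6.34 RPMR at 27 °C, and in *dcl1-24/hyl1-2* at 11.3, 7.08 and 16.1 and at 12.8, 22.7 and 31.1 RPMR. The 2 temperatures overlapped in both mutants.

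miR408-5p was at 20.8, 3.38 and 7.09 RPMR in Col-0 at 21 °C and at 31.0, 48.6 and 9.90 RPMR at 27 °C. In *hyl1-2* it went from 4.03, 5.56 and 1.36 RPMR to 37.0, 21.8 and 13.3 RPMR, and in *dcl1-24/hyl1-2* from 4.18, 4.25 and 16.1 to 8.99, 19.2 and 30.6 RPMR. The temperatures did not overlap in *hyl1-2* alone, where the lowest library at 27 °C was above the highest at 21 °C.

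miR398a-3p, the minor guide of the family, stood at 18.8, 3.38 and 2.84 RPMR in Col-0 at 21 °C and at 3.76, 7.55 and 8.96 RPMR in *dcl1-24/hyl1-2*, but was listed at 0, 1.11 and 0 RPMR in *hyl1-2*. These *hyl1-2* values are 2 reads in all. The pooled level was 26.9 times as high in Col-0 (exact 95% interval 7.07 to 228) and 20.9 times as high in *dcl1-24/hyl1-2* (5.37 to 179). The intervals take the values as reads and cover counting error only, not the spread between libraries. Of the 52 reads in Col-0, 38 were in replicate 1. At 27 °C it stood at 8.79, 5.71 and 1.37 RPMR in Col-0, 1.44, 0.888 and 1.33 RPMR in *hyl1-2* and 5.51, 16 and 9.82 RPMR in the suppressor.

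No read of miR398a-5p was listed in *hyl1-2* at 21 °C. Against a floor of 3 reads over that group (0.446 RPMR), its pooled level was 4.13 times the floor in Col-0 and 5.17 times in *dcl1-24/hyl1-2*. These rest on 12 reads in Col-0, 8 of them in replicate 2, and on 13 in the suppressor, 11 of them in replicate 1. The pooled values leave out the spread between libraries. In the other groups it lay between 0 and 4.59 RPMR, with libraries at 0 in *hyl1-2* at 27 °C and in *dcl1-24/hyl1-2* at 21 °C.

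The comparison of *hyl1-2* with Col-0 asked which of these strands depend on HYL1. At 21 °C, 4 of the 6 fell: miR398b/c-3p by 3.36 on the log2 scale (SE 0.71, adjusted p = 3.3e-05), miR398a-3p by 2.43 (SE 0.66, adjusted p = 0.000945), miR408-3p by 2.11 (SE 0.75, adjusted p = 0.011) and miR398a-5p by 1.36 (SE 0.52, adjusted p = 0.0188), in limma on log2(RPMR + 1) with Benjamini-Hochberg adjustment over 139 entries. Of all 139 entries, 83 (59.7%) fell in this comparison, with a median of -1.95, so a fall was the common outcome. The passengers miR408-5p (-1.10, adjusted p = 0.189) and miR398b/c-5p (-0.68, adjusted p = 0.422) were not called. Relative to the median entry, only miR398b/c-3p, miR398a-3p and miR408-3p had the lower value among the 6.

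At 27 °C, 3 of the 6 were lower in *hyl1-2*, beside 75 of all 139 (54%; median -1.62). These were miR398b/c-3p, which fell by 2.54 (SE 0.71, adjusted p = 0.00185), miR398b/c-5p, by 1.79 (SE 0.73, adjusted p = 0.0301), and miR408-3p, by 1.73 (SE 0.75, adjusted p = 0.0417). The miR408-3p groups overlapped, and its call was lost when each of 6 libraries was left out in turn (range -2.35 to -1.35 over all 18), and that of miR398b/c-5p with each of 4 (-2.23 to -1.34). The values of miR398a-3p (-1.28, adjusted p = 0.0883), miR398a-5p (-0.26, adjusted p = 0.709) and miR408-5p (-0.16, adjusted p = 0.895) did not pass.

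These falls are relative to rRNA. When libraries were scaled to the miRNAs instead, the median entry of *hyl1-2* against Col-0 at 21 °C lay between -0.36 and 0.21, and miR408-3p, called lower on RPMR, turned to between 0.35 and 1.08 at 21 °C (called higher at 1.08, adjusted p = 0.0306) and between 0.08 and 0.90 at 27 °C (not called). Under the same 3 scalings miR398b/c-3p lay between -0.73 and 0.04 at 21 °C and between -0.72 and 0.11 at 27 °C, and was called at neither temperature. At 21 °C the call of miR398a-5p was lost under all 3, and that of miR398a-3p held only under median-of-ratios factors. The passengers passed in the other direction: miR408-5p was called higher in *hyl1-2* under all 3 scalings at 21 °C (1.14 to 1.78) and at 27 °C (1.62 to 2.39), and miR398b/c-5p at 21 °C (1.66 to 2.32). The call of miR398b/c-5p as lower at 27 °C was lost under all 3. The call of miR408-3p at 21 °C did not pass without replicate 3 of *hyl1-2* (-1.53, adjusted p = 0.11), the library with the lowest miRNA sum of all (3757 RPMR). That of miR398a-5p did not pass without the same library (-1.36, adjusted p = 0.057) or without replicate 2 of Col-0 (-0.98).

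The comparison of *dcl1-24/hyl1-2* with *hyl1-2* asked which strands the DCL1 substitution restores. At 21 °C, 4 of the 6 rose, beside 111 of all 139 (79.9%; median 2.09). miR398b/c-3p rose by 3.27 (SE 0.71, adjusted p = 5.9e-05), miR398a-3p by 2.53 (SE 0.66, adjusted p = 0.000626), miR408-3p by 1.67 (SE 0.75, adjusted p = 0.0346) and miR398a-5p by 1.32 (SE 0.52, adjusted p = 0.0179). The passengers miR398b/c-5p (0.95) and miR408-5p (0.86) were not called. miR398a-5p was no longer called without replicate 3 of *hyl1-2* (1.32) or replicate 1 of the suppressor (0.74), and miR408-3p without replicate 3 of *hyl1-2* (1.09) or replicate 1 (1.66) or 3 (1.44) of the suppressor.

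These rises too are relative to rRNA. Scaled to the miRNAs, miR398b/c-3p stood at 0.14 to 0.82 and was not called under any of the 3 scalings (adjusted p = 0.101 to 0.845 in limma). The call of miR398a-5p was likewise lost under all 3, and that of miR398a-3p under both scalings to a miRNA sum. miR408-3p turned negative (-0.61 to -1.25, called lower at -1.25). The passengers were called lower than in *hyl1-2* under all 3 scalings, miR398b/c-5p by values of -1.25 to -1.86 and miR408-5p by -1.23 to -1.81.

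At 27 °C the guides of the families parted in size. miR398b/c-3p rose by 3.52 (SE 0.71, adjusted p = 8.48e-05), the second highest of the 139 differences, and miR398a-3p rose by 2.27 (SE 0.66, adjusted p = 0.0043), beside 66 of 139 entries (47.5%; median 1.46). The differences of miR398a-5p (1.08, adjusted p = 0.0711), miR408-3p (0.94, adjusted p = 0.257), miR398b/c-5p (0.93, adjusted p = 0.254) and miR408-5p (-0.32, adjusted p = 0.711) did not pass. Scaled to the miRNAs, miR398b/c-3p kept a positive difference (1.42 to 1.95, not called at 1.42), the call of miR398a-3p was lost under all 3 scalings (0.69 to 1.12), and miR408-5p lay between -1.84 and -2.33 and passed.

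**Figure D3:**
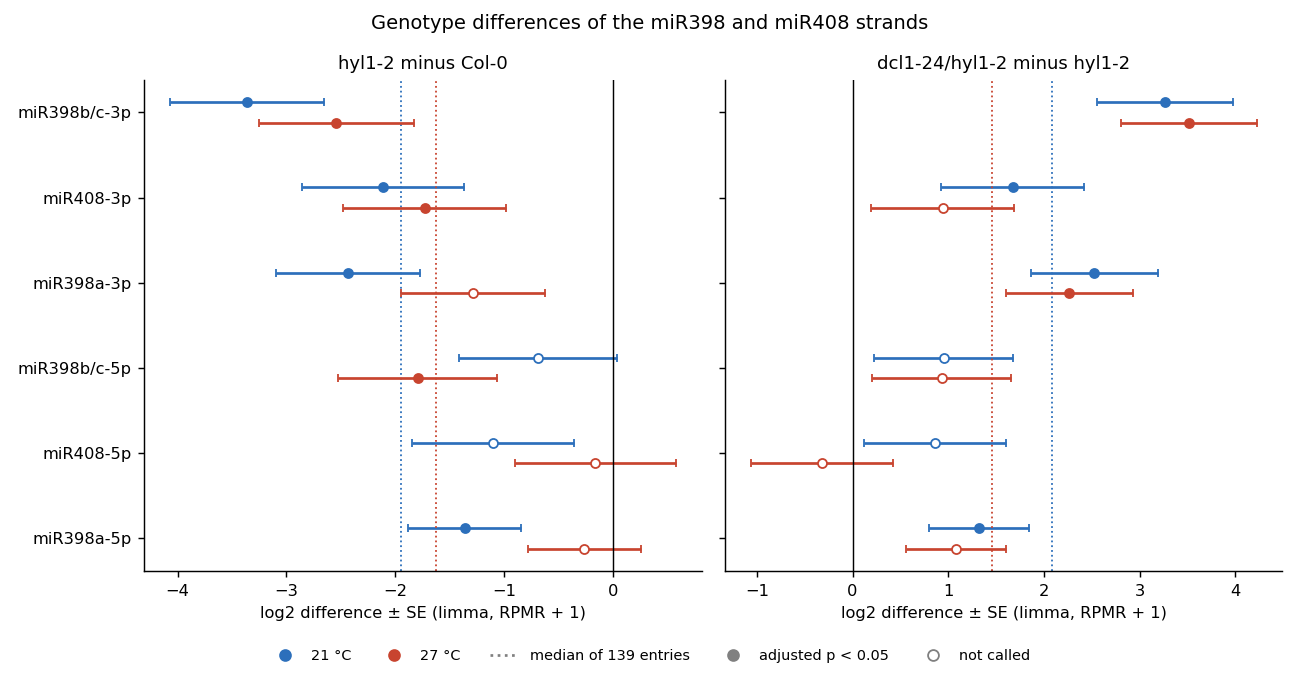
Differences between genotypes for the 6 strands, as limma log2 differences of RPMR + 1 with their SE on the x axis, at 21 °C (blue) and 27 °C (red). Filled points passed adjusted p under 0.05, and dotted lines mark the medians of the 139 entries; miR398b/c-3p lies beyond the median in every panel.

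Between *dcl1-24/hyl1-2* and Col-0, none of the 6 strands was called at either temperature in limma, and none had an unadjusted p under 0.05. Of all 139 entries, 19 were called higher (13.7%) and 11 lower (7.91%) at 21 °C, and 23 higher (16.5%) and 14 lower (10.1%) at 27 °C. The differences ran from -0.44 to 0.27 at 21 °C and from -0.86 to 0.98 at 27 °C. At 27 °C miR398b/c-3p stood at 0.98 (SE 0.71, adjusted p = 0.349) with libraries that did not overlap. It passed when libraries were scaled by median-of-ratios (1.46) or to the miRNA sum without miR5026 (1.93). Scaled to the full miRNA sum, no member was called higher and 1 was called lower, beside 17 higher and 31 lower of all 139. miR408-3p at 27 °C stood at -0.79 (SE 0.75). With an SE of that size, differences of about 1 on the log2 scale could not be detected.

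The warm temperature raised miR408 and left the miR398 guides without a called change. Averaged over the 3 genotypes, miR408-3p rose by 1.90 (SE 0.43, adjusted p = 0.000792), a 3.74-fold difference, and miR408-5p by 1.73 (SE 0.43, adjusted p = 0.00269). miR398b/c-5p rose by 1.26 (SE 0.42, adjusted p = 0.0394). These 3 of 6 compare with 9 of 139 entries called higher (6.47%), and the median was 0.78 over the 6 and 0.29 over all 139. The 9 include these 3, and both miR408 strands come from the same precursor, so the 3 are not independent. The call of miR398b/c-5p was lost when each of 11 of the 18 libraries was left out in turn, with a range of 1.09 to 1.40 over all 18. The guides miR398b/c-3p (0.23, SE 0.41, adjusted p = 0.763) and miR398a-3p (0.31, SE 0.38, adjusted p = 0.589) and the passenger miR398a-5p (-0.01, SE 0.30) were not called.

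Within single genotypes, where each mean rests on 3 libraries, no member was called in limma, beside 0 of 139 entries called higher in any genotype; an unadjusted p under 0.05 was found for 3 of the 6 in Col-0, 2 in *hyl1-2* and 1 in the suppressor, beside 14, 16 and 12 of all 139. miR408-3p differed by 1.89 in Col-0 (SE 0.75, adjusted p = 0.252), 2.27 in *hyl1-2* (SE 0.75, adjusted p = 0.138) and 1.55 in *dcl1-24/hyl1-2* (SE 0.75, adjusted p = 0.517), and it was among the 4 highest of 139 in each. Scaled to the miRNAs it passed in each genotype, with 1.5 to 1.86 in Col-0, 1.40 to 1.65 in *hyl1-2* and 1.45 to 1.84 in the suppressor. Unlike its genotype differences, its warm difference therefore had the same sign on every scale tried. The differences between genotypes in this response were 0.38 (*hyl1-2* minus Col-0), -0.35 (*dcl1-24/hyl1-2* minus Col-0) and -0.73 (*dcl1-24/hyl1-2* minus *hyl1-2*), each with an SE of 1.06 and none called.

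miR408-5p differed by 1.49 in Col-0, 2.44 in *hyl1-2* and 1.26 in the suppressor (SE 0.74 each), and its value in *hyl1-2* was the highest of 139. miR398b/c-5p differed by 2.00 in Col-0 (SE 0.73, adjusted p = 0.16), 0.89 in *hyl1-2* and 0.87 in the suppressor. miR398b/c-3p differed by -0.40 in Col-0, 0.42 in *hyl1-2* and 0.67 in the suppressor (SE 0.71 each). Library sums of miRNA RPMR moved with temperature in *hyl1-2*, from 3757 to 7657 RPMR at 21 °C to 7850 to 18740 RPMR at 27 °C; their part in the *hyl1-2* values was not tested beyond the scalings given here.

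**Figure D4:**
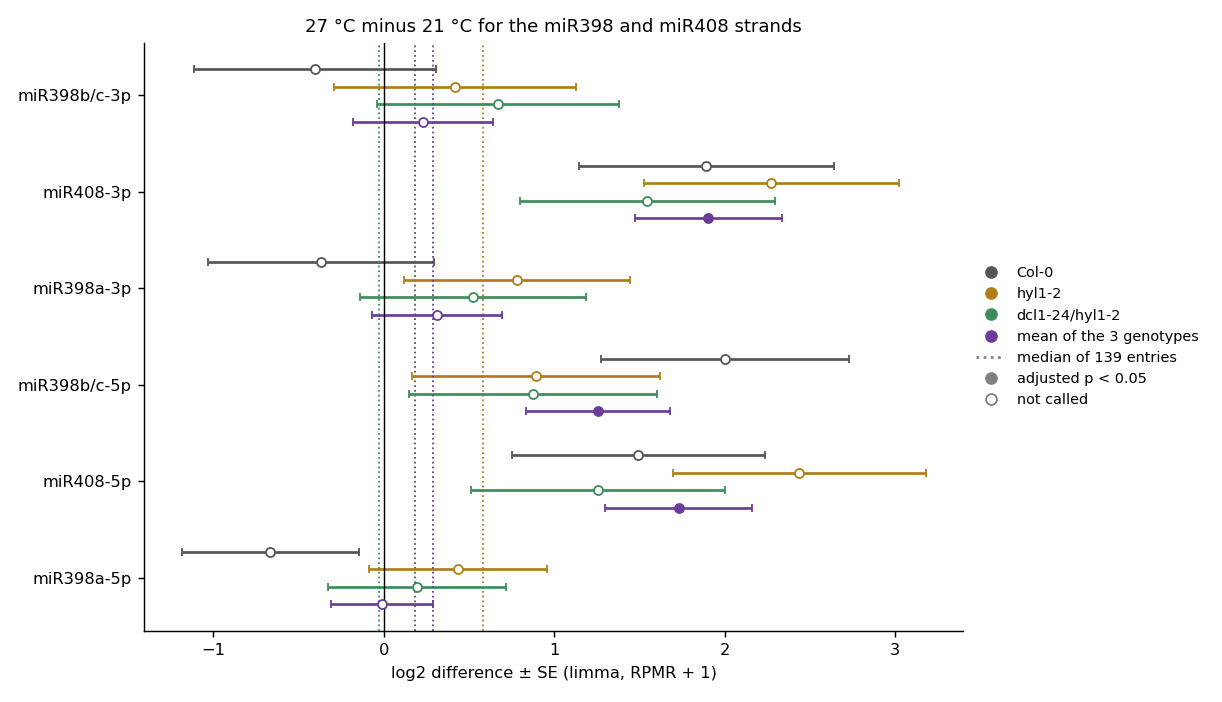
Difference between 27 °C and 21 °C for the 6 strands (limma log2 difference of RPMR + 1 with SE on the x axis) in each genotype and averaged over the 3. Filled points passed adjusted p under 0.05 and dotted lines mark the medians of the 139 entries; the averaged values of miR408-3p, miR408-5p and miR398b/c-5p are filled.

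A raw ratio of strands within a library, with nothing added, does not depend on the rRNA reads. The level of miR408-3p over that of miR398b/c-3p was 0.0810, 0.0715 and 0.0788 in Col-0 at 21 °C and 0.524, 0.458 and 0.239 at 27 °C. In *hyl1-2* it was 0.145, 0.179 and 0.174 at 21 °C and 0.994, 0.723 and 0.425 at 27 °C. The suppressor *dcl1-24/hyl1-2* had ratios of 0.0790, 0.0428 and 0.0640 at 21 °C and 0.0861, 0.164 and 0.102 at 27 °C. In each genotype the ratio was higher at 27 °C with no overlap, and at both temperatures it was higher in *hyl1-2* than in *dcl1-24/hyl1-2* with no overlap. The smallest separation was in *dcl1-24/hyl1-2*, where a step from 0.0790 to 0.0861 lay between the temperatures. These ratios are a description and were not tested.

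The balance of passenger and guide differed between the families. The miR398b/c passenger amounted to 2.08, 1.27 and 2.78% of its guide in Col-0 at 21 °C and to 8.79, 17.9 and 8.93% at 27 °C. In reads, this was 60 passengers beside 3097 guides at 21 °C and 331 beside 2715 at 27 °C. In *hyl1-2* it amounted to 13.7, 8.57 and 13% at 21 °C but 22.5, 22.8 and 10.9% at 27 °C, and in *dcl1-24/hyl1-2* to 3.39, 1.69 and 2.88% and to 2.31, 4.72 and 2.62%. The percentages of the suppressor were near those of Col-0 at 21 °C, and at 27 °C they lay below every Col-0 library.

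The log2 ratio of passenger to guide (each with 1 RPMR added) was tested with limma over the 25 strand pairs of the table. The added 1 RPMR is on the rRNA scale, so the tested ratio is not free of the rRNA reads. It moves ratios towards equality, most at low levels such as those of *hyl1-2*. For miR398b/c the tested ratio was higher at 27 °C in Col-0 by 2.40 (SE 0.51, adjusted p = 0.00422 in limma), the only one of 25 pairs called higher (4%). The value was 0.47 in *hyl1-2* and 0.20 in *dcl1-24/hyl1-2*. The differences from Col-0 in this response, -1.93 for *hyl1-2* (SE 0.72, adjusted p = 0.379) and -2.20 for *dcl1-24/hyl1-2* (SE 0.72, adjusted p = 0.0849), did not pass, so a difference between genotypes was not shown. The average over genotypes was 1.03 (SE 0.29, adjusted p = 0.0322), again the only pair of 25 called higher (4%), and it was lost when each of 10 of the 18 libraries was left out in turn. With only the 2 Col-0 groups in the fit, the call in Col-0 did not pass (adjusted p = 0.108).

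Against Col-0, *hyl1-2* had the higher miR398b/c ratio at 21 °C by 2.68 (SE 0.51, adjusted p = 0.000661), beside 7 of 25 pairs called higher (28%). At 27 °C the difference was 0.75 (adjusted p = 0.334). In *dcl1-24/hyl1-2* the ratio was below that of *hyl1-2* by 2.32 at 21 °C (log2 difference -2.32, adjusted p = 0.00308), beside 5 of 25 pairs (20%), and at 27 °C the log2 difference was -2.59 (adjusted p = 0.000973), beside 3 of 25 (12%). It was also below that of Col-0 at 27 °C (-1.84, SE 0.51, adjusted p = 0.0494), the only pair of 25 called lower (4%). That last value passed narrowly and was lost when each of 12 of the 18 libraries was left out in turn.

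The miR408 passenger was more abundant beside its guide. It amounted to 38.5, 10.1 and 29.4% in Col-0 at 21 °C and 13.8, 25.8 and 17.8% at 27 °C. In *hyl1-2* it amounted to 42.1, 40 and 50% at 21 °C and to 48.4, 67.1 and 54.1% at 27 °C, and in *dcl1-24/hyl1-2* to 15.9, 23.7 and 45% and to 18.9, 24.3 and 25.2%. *hyl1-2* lay above Col-0 without overlap at both temperatures, and the share of the 25 pairs that did so was not counted. The log2 ratio differed by 1.01 at 21 °C (SE 0.46, adjusted p = 0.101; 0.0319 with a pseudocount of 5) and by 1.57 at 27 °C (SE 0.46, adjusted p = 0.0245), beside 4 of 25 pairs called higher (16%). The median over the 25 pairs was 0.95 at 21 °C and 0.59 at 27 °C. Counted from the lowest, miR408 ranked 14th of 25 at 21 °C and 20th at 27 °C, so its rise at 21 °C was near that of the median pair. The miR408 call at 27 °C did not pass without replicate 1 (1.35) or 3 (1.57) of Col-0 or replicate 2 (1.44) or 3 (1.59) of *hyl1-2* at that temperature. The difference of -1.27 between *dcl1-24/hyl1-2* and *hyl1-2* at 27 °C did not pass (adjusted p = 0.0787), but did with a pseudocount of 5 (-1.13, adjusted p = 0.0258), a minimum mean of 5 RPMR (adjusted p = 0.0499) or only the groups compared (adjusted p = 0.0236). Temperature moved the miR408 ratio by -0.17 on average (SE 0.26, adjusted p = 0.762).

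**Figure D5:**
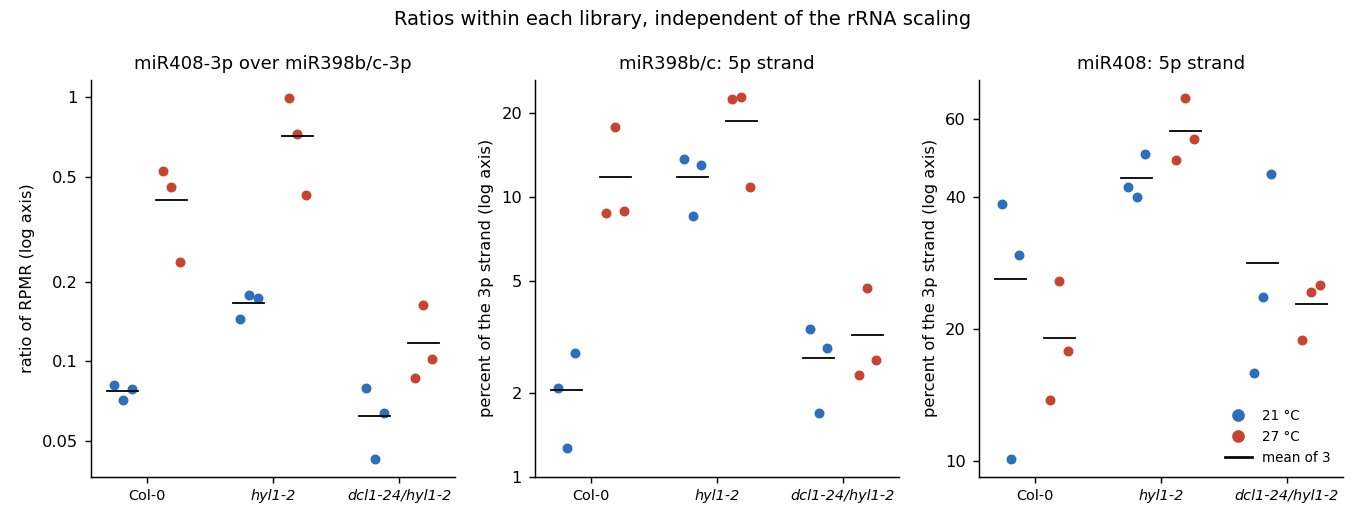
Ratios within each library on log axes: miR408-3p over miR398b/c-3p, and the 5p strand as a percentage of the 3p strand for miR398b/c and for miR408, in 3 libraries per genotype at 21 °C (blue) and 27 °C (red) with the mean of 3 as a black bar. The first ratio is higher at 27 °C in every genotype, whereas the miR398b/c percentage separates the temperatures only in Col-0.

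Other miRNAs that answer nutrient supply were set beside the copper family: miR395 (sulfate; 2 entries), and miR399, miR827 and miR2111 (phosphate; 1 entry each). None of these 5 was called with temperature on average, and their median was 0.17. All but miR399b/c-3p had means of only 1.88 to 3.54 RPMR over the 18 libraries, where log2(RPMR + 1) understates changes, so a response is not excluded. From 21 to 27 °C, miR827 went from 12 to 46 reads in Col-0, from 0 to 6 in *hyl1-2* and from 4 to 11 in *dcl1-24/hyl1-2*. miR827, which guides an SPX-domain protein mRNA, had the highest value (0.82, SE 0.31, adjusted p = 0.0868), followed by miR399b/c-3p (0.70), which targets the ubiquitin-conjugating enzyme PHO2. In *hyl1-2* against Col-0, 4 of the 5 fell at 21 °C, beside 83 of all 139 (59.7%). At 27 °C 4 fell, beside 75 of 139 (54%). These falls too are relative to rRNA.

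Likeness of profiles was measured as the root mean square difference of log2(RPMR + 1) over the 18 libraries after each entry was centred. The 3 entries nearest to miR408-3p were miR396b-5p (0.57), miR398b/c-5p (0.62) and miR393b-3p (0.65), beside a median of 1.31 over all others, and its own passenger was the 6th nearest (0.71). The guide of miR398b/c was the 66th. Nearest to miR398b/c-3p were miR858a (0.75), miR319a/b (0.77) and miR398a-3p (0.79), beside a median of 1.24. Its own passenger was the 85th (1.32) and miR408-3p the 78th (1.28). The profiles of the 18 libraries share depth and rRNA scaling, so these values describe the table and were not tested.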

How the data were processed

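Levels came from the deposited table of RPMR, which are RPM relative to rRNA: the authors trimmed reads with cutadapt 3.0, kept those of 18–42 nt, aligned them with ShortStack without mismatches (reads with several positions placed by the density of unique reads around them) and divided by 45S rRNA reads. The authors used DESeq2 for their own tests. The values cannot separate a change of miRNA from a change of rRNA fragments.

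Contrasts were fitted with limma 3.58.1 (R 4.3.3, variance trend) on log2(RPMR + 1), which understates changes of low entries, with 6 group means over the 139 entries whose mean reached 1 RPMR, two-sided, at adjusted p under 0.05, in 13 contrasts. Strand ratios were fitted likewise over 25 pairs. Procedures were tested on simulated data. Simulated levels were drawn independently for each entry, without shifts shared by all entries of a library. The real libraries had such shifts, with miRNA sums of 29167 to 107318 RPMR within *dcl1-24/hyl1-2* at 21 °C, so that test does not cover them. Simulated strand ratios had equal spread and were fitted without the variance trend, so that test does not cover the strand fit in full. Depth was 1115776 to 4158872 rRNA reads and 11040 to 173156 miRNA reads per library. Named entries were all members, the 5 other nutrient entries and the 3 nearest profiles; members and lists were chosen with earlier results of these data known. Same-numbered libraries deviated together (all correlations over 0.1) in 2 of 15 pairs of groups, Col-0 with *hyl1-2* at 27 °C (from 0.16 up to 0.48) and 21 and 27 °C in *dcl1-24/hyl1-2* (0.14 to 0.27). Sequences came from RefSeq (TAIR10.1), read with Python 3.11.15; intervals used scipy 1.17.1.

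Alternatives were pseudocounts of 0.5 and 5, no filter or a minimum mean of 5 RPMR, 3 scalings to the miRNAs, a replicate term, only the groups compared, and each library left out. Strand ratios were not refitted under the 3 scalings or without the filter.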

Additional observations from a re-analysis of the deposited data

How the results depend on the processing

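Scaled by median-of-ratios factors, the signs that turned were miR408-5p (1.14), miR398b/c-5p (1.66) and miR408-3p (0.35) for *hyl1-2* against Col-0 at 21 °C, miR398a-5p (0.38), miR408-5p (1.82), miR398b/c-5p (0.16), miR408-3p (0.30) and miR398a-3p (0.18) for *hyl1-2* against Col-0 at 27 °C, miR408-5p (-1.23), miR398b/c-5p (-1.25) and miR408-3p (-0.61) for *dcl1-24/hyl1-2* against *hyl1-2* at 21 °C, miR398b/c-5p (-0.55) and miR408-3p (-0.61) for *dcl1-24/hyl1-2* against *hyl1-2* at 27 °C, miR398b/c-3p (-0.54) for the warm response in *hyl1-2* and miR398a-5p (0.077) and miR398b/c-3p (-0.24) for the averaged warm response. Member calls under this scaling follow, with calls over all 139 entries in brackets (higher and lower). *hyl1-2* against Col-0 had 2 members higher and 1 lower at 21 °C (21 and 35), and 1 higher at 27 °C (19 and 23). Against *hyl1-2*, *dcl1-24/hyl1-2* had 1 higher and 2 lower at 21 °C (40 and 10), and 1 and 1 at 27 °C (18 and 5). Against Col-0 at 27 °C it had 1 higher (24 and 16). Warm-response calls were 2 higher in Col-0 (4 and 2), 2 in *hyl1-2* (5 and 3) and 1 in *dcl1-24/hyl1-2* (2 and 4). Scaled to summed miRNA RPMR, the signs that turned were miR408-5p (1.33), miR398b/c-5p (1.86) and miR408-3p (0.55) for *hyl1-2* against Col-0 at 21 °C, miR398a-5p (0.34), miR408-5p (1.62), miR408-3p (0.080) and miR398a-3p (0.021) for *hyl1-2* against Col-0 at 27 °C, miR408-5p (-1.81), miR398b/c-5p (-1.86) and miR408-3p (-1.25) for *dcl1-24/hyl1-2* against *hyl1-2* at 21 °C, miR398b/c-5p (-1.04) and miR408-3p (-1.13) for *dcl1-24/hyl1-2* against *hyl1-2* at 27 °C, miR398b/c-3p (-0.60) for the warm response in *hyl1-2* and miR398a-5p (0.13) and miR398b/c-3p (-0.11) for the averaged warm response. Member calls under this scaling follow in the same form. *hyl1-2* against Col-0 had 2 members higher at 21 °C (25 and 28) and 1 higher at 27 °C (16 and 30). Against *hyl1-2*, *dcl1-24/hyl1-2* had 3 lower at 21 °C (21 and 23) and 1 lower at 27 °C (4 and 8). Against Col-0 at 27 °C it had 1 lower (17 and 31). Warm-response calls were 2 higher in Col-0 (6 and 1), 2 in *hyl1-2* (7 and 3) and 1 in *dcl1-24/hyl1-2* (2 and 4). Scaled to summed miRNA RPMR without miR5026, the signs that turned were miR408-5p (1.78), miR398b/c-5p (2.32), miR408-3p (1.08) and miR398b/c-3p (0.036) for *hyl1-2* against Col-0 at 21 °C, miR398a-5p (0.60), miR408-5p (2.39), miR398b/c-5p (0.74), miR408-3p (0.90), miR398b/c-3p (0.11) and miR398a-3p (0.59) for *hyl1-2* against Col-0 at 27 °C, miR408-5p (-1.52), miR398b/c-5p (-1.56) and miR408-3p (-0.93) for *dcl1-24/hyl1-2* against *hyl1-2* at 21 °C, miR398b/c-5p (-0.67) and miR408-3p (-0.73) for *dcl1-24/hyl1-2* against *hyl1-2* at 27 °C, miR408-3p (0.16) for *dcl1-24/hyl1-2* against Col-0 at 27 °C, miR398b/c-3p (-0.34) for the warm response in *hyl1-2* and miR398a-5p (0.27) for the averaged warm response. Member calls under this last scaling follow in the same form. *hyl1-2* against Col-0 had 3 members higher at 21 °C (33 and 23) and 1 higher at 27 °C (29 and 15). Against *hyl1-2*, *dcl1-24/hyl1-2* had 2 lower at 21 °C (23 and 13), and 1 higher and 1 lower at 27 °C (18 and 7). Against Col-0 at 27 °C it had 1 higher (33 and 7). Warm-response calls were 2 higher in Col-0 (5 and 1), 2 in *hyl1-2* (8 and 3) and 1 in *dcl1-24/hyl1-2* (4 and 2). The cause of these turns was not tested; each scaling removes the change of the summed or median miRNA level that RPMR keeps. The averaged warm calls of miR408-3p, miR408-5p and miR398b/c-5p held under every setting that kept all 18 libraries.

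With a pseudocount of 0.5 the averaged warm value of miR398a-5p turned to 0.065. With a pseudocount of 5, the calls of miR398a-5p in *hyl1-2* against Col-0 at 21 °C (adjusted p = 0.094) and of miR408-3p in *dcl1-24/hyl1-2* against *hyl1-2* at 21 °C (adjusted p = 0.07) and the averaged warm call of the miR398b/c strand ratio (0.77, adjusted p = 0.206) were lost in limma, while the miR408 ratio passed for *hyl1-2* against Col-0 at 21 °C and for *dcl1-24/hyl1-2* against *hyl1-2* at 27 °C. The miR398b/c ratio of *dcl1-24/hyl1-2* against Col-0 at 27 °C was lost with a pseudocount of 0.5 (adjusted p = 0.0619). With only the groups compared, miR398a-5p passed for *dcl1-24/hyl1-2* against *hyl1-2* at 27 °C (adjusted p = 0.0469) and the miR398b/c ratio was lost for the warm response in Col-0. Leaving out each library in turn, the members called ranged from 0 to 2 for the warm response in Col-0, from 2 to 4 for *hyl1-2* against Col-0 at 21 °C, from 1 to 4 for the same at 27 °C and from 2 to 4 for *dcl1-24/hyl1-2* against *hyl1-2* at 21 °C, and the calls among member strand pairs over all contrasts from 4 to 8. Signs turned in the averaged warm values of miR398a-5p (-0.23 to 0.18) and miR398b/c-3p (-0.0067 to 0.37), in miR398b/c-3p of *hyl1-2* with temperature (-0.29 to 0.83), in miR408-5p of *hyl1-2* against Col-0 at 27 °C (-0.78 to 0.31) and of *dcl1-24/hyl1-2* against *hyl1-2* at 27 °C (-0.71 to 0.12), and in the miR398b/c strand ratio of *dcl1-24/hyl1-2* with temperature (-0.10 to 0.40).

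With the replicate block, the averaged warm value of miR408-3p was 1.90 (adjusted p = 0.000486 in limma), 3 members were called in *hyl1-2* against Col-0 at 27 °C, and no call reported here changed. A count test on reads was not run, because RPMR are scaled values: they are whole multiples of 1 read, but a library held only 66 to 93 values of 1 to 20 reads, under the 100 set as the least for treating a column as reads. The exact intervals of miR398a-3p and the read totals given here do take these values as reads, and rest on that reading. The within-library ratio of miR408-3p to miR398b/c-3p is unchanged by any scaling of libraries. Depth limits miR398a, with 48 reads of its 5p strand in all 18 libraries and 2 reads of its guide in *hyl1-2* at 21 °C.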
